A study of Mus musculus with 8 samples.

Results

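The 10 genes described here encode feedback inhibitors of the mitogen-activated protein kinases (MAPKs) ERK, JNK and p38. They are the dual-specificity phosphatases *Dusp1*, *Dusp4*, *Dusp5*, *Dusp6*, *Dusp7*, *Dusp10* and *Dusp16*, the Sprouty genes *Spry2* and *Spry4*, and *Spred1*. They were chosen by name, through the gene symbol of the RefSeq accession in each count file, and make up 10 of the 23930 targets counted. All 10 passed the filter on low counts, which kept 14601 targets. The cells were liver sinusoidal endothelial cells, the fenestrated lining of the liver's capillaries, sorted from wild-type young female Balb/c mice as CD45-dim, STAB2-high and CD146-high cells. The iron citrate group (4 libraries) came from mice given 150 µg iron citrate into a vein, and the citrate buffer group (4 libraries) from mice given 0.05 M citrate buffer. In both groups the cells were taken at 5 h, and each library is titled with 1 mouse. A design of 5 against 5 is stated for the series, and samples beyond these 8 were not analysed here.

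MAPK phosphatases remove the phosphates that activate ERK, JNK and p38, and the transcription of several of them is itself raised by MAPK activity. Their mRNA is therefore commonly read as a trace of recent MAPK signalling. Sprouty and Spred proteins act further up, between receptor tyrosine kinases, Ras and Raf, and in endothelium they restrain the response to growth factors such as VEGF. The title of the series links iron to *Bmp6* mRNA through p38 and ETS1, and the comparison asked whether the feedback genes of the MAPKs moved with iron at the mRNA level.

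None of the 10 genes differed between iron citrate and citrate buffer past the threshold, an adjusted p under 0.05 in edgeR's quasi-likelihood test over all 14601 targets. That share, 0 of 10, stands beside 0.555% of all tested targets (81), with 77 higher (0.527%) and 4 lower (0.0274%). Before adjustment, 1 of the 10 had a p under 0.05, *Dusp16*, which was higher, beside 14.6% of all tested targets. That count was 4 (*Dusp4*, *Dusp5*, *Dusp16* and *Spred1*, all higher) without citrate buffer replicate 4 and under the replicate block, and 0 or 1 in the other 15 alternatives. The share of all targets with such a p was not counted for that block or without that library, so the 4 have no background beside them. DESeq2 and limma-voom also called 0 of the 10, beside 2.5% and 1.98% of all targets. In none of the 10 did the 4 iron citrate values lie wholly to 1 side of the 4 buffer values, which was so for 8.64% of all tested targets (iron above in 6.36%, below in 2.29%). Their median log2 fold change was 0.05, against -0.01 over all tested targets. For 8 of the 10 the 95% interval of the fold change lay within 2-fold in either direction, and the exceptions were *Dusp4* and *Dusp16*. Intervals quoted here come from the edgeR fit and are not adjusted for the number of genes.

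Promoter windows are shown for 2 of the genes because each holds a textbook response element of a stimulus-induced phosphatase gene. The windows run from 250 bases before to 50 bases after the RefSeq transcription start (GRCm38.p6), each written 5′ to 3′ on the strand of its gene. In *Dusp1*, at chr17:26508423-26508722 on the minus strand, capitals mark the palindromic cyclic AMP response element (CRE), which CREB-family factors bind. In *Dusp5*, at chr19:53528895-53529194 on the plus strand, capitals mark 2 adjoining CArG boxes, the binding element of serum response factor, through which ERK signals reach many immediate-early genes.
Dusp1: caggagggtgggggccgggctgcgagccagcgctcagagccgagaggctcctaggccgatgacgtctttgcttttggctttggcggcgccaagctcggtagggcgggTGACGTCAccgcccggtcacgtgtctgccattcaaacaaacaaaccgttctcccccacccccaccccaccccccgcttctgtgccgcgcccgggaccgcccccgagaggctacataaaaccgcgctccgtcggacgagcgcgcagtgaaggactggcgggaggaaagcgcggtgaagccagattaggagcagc
Dusp5: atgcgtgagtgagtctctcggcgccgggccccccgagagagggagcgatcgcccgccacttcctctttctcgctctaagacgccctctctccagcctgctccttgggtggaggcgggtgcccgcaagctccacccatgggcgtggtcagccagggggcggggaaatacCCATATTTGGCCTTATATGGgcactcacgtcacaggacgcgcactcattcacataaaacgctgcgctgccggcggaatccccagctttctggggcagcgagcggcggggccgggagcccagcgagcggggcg

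The CRE (TGACGTCA) began 143 bases before the *Dusp1* start, and the CArG boxes began 82 and 72 bases before the *Dusp5* start. Windows were found for 8 of the 10 genes, the others being *Dusp4* and *Spry4*. Both strands were searched for 5 motifs, and no 2 of the matches named here overlapped. The CRE was in 1 of the 8 windows, beside 1.79% of all 32851 promoter windows in the table, and the CArG box in 1 of 8, beside 1.63%. The antioxidant response element (TGACNNNGC), to which NRF2 binds, matched once each in *Dusp1* and *Dusp5*, beside 12.4% of all windows. The ETS motif (CCGGAAG) and the AP-1 motif (TGANTCA) matched in 0 of the 8, beside 8.86% and 7.81%. A match describes letters in these windows, and binding was not measured.

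Some facts of the libraries bear on every value below. Counts on targets ran from 7969520 to 11314659 per library, and the 10 genes drew between 68 and 5806 counts each in a library. Values are CPM, the counts scaled to library size, adjusted between libraries by TMM factors. Since amplicons differ in efficiency from gene to gene, levels are compared between libraries and not between genes. Citrate buffer replicate 1 stood apart, with a median correlation of 0.839 with its own group against 0.962 to 0.981 for the other 7 libraries. Gene families that liver endothelium should not express, such as olfactory receptors (1286 targets), took 2.42% of its counts and 0.983% of those of citrate buffer replicate 2, against 0.295% to 0.611% in the other 6 libraries, and for some genes values without both are given. Markers of other cell types differed in that library too. Summed T and NK cell markers (7 of 8 measured) stood at 1876 CPM, against 598 to 895 CPM in the other 7 libraries, and the 9 neutrophil markers at 331 CPM against 91.4 to 187 CPM. *Gzma* alone gave 1261 CPM of the first sum, and *Nkg7*, *Cd3d* and *Klrb1c* were also highest in that library. *Cd3e* and *Cd8a* lay within the range of the other libraries, and *Cd4*, at 21.3 CPM, was below it. Of the neutrophil markers *S100a8*, *S100a9*, *Cxcr2*, *Camp* and *Elane* were highest in that library, while *Retnlg*, *Ltf*, *Ly6g* and *Mpo* lay within the range of the others. The 14 markers of sinusoidal endothelium summed to 22784 CPM there, against 34197 to 42625 CPM elsewhere, and the 9 Kupffer cell markers to 51.6 CPM, against 187 to 527 CPM. Of the Kupffer list *C1qa* was at no more than 0.196 CPM in any library, while *Clec4f* was at 25.0 to 94.1 CPM after iron citrate and 5.90 to 59.3 CPM after citrate buffer. *C1qb* was at 35.1 to 82.5 CPM after iron citrate and 4.38 to 48.4 CPM after citrate buffer. None of the 12 marker lists had a called gene (edgeR), and in iron citrate libraries the sums were 34197 to 38975 CPM for sinusoidal endothelium, 625 to 799 CPM for T and NK cells, 123 to 187 CPM for neutrophils and 187 to 527 CPM for Kupffer cells. Citrate buffer replicates 2 to 4 had neutrophil sums of 91.4 to 93.3 CPM. The part of these marker levels in the results was not tested. In such sorted bulk samples fewer cells of a type and less RNA per cell cannot be told apart. For each of the 10 genes the difference is also given without citrate buffer replicate 1.

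*Dusp1*, the inducible nuclear phosphatase that acts mainly on p38 and JNK, was close to level. It stood at 449.7, 574.9, 527.7 and 533.4 CPM in iron citrate replicates 1 to 4, against 435.3, 460.4, 513.8 and 533.5 CPM in citrate buffer replicates 1 to 4. The groups overlapped over most of their range, and the 2 lowest values were replicate 1 of buffer and replicate 1 of iron. The means were 521 ± 52.3 CPM after iron citrate and 486 ± 45.7 CPM after citrate buffer (SD, n = 4 each). The log2 fold change was 0.10 (95% interval -0.20 to 0.41, edgeR adjusted p = 0.704), so the interval reached from 0.87-fold to 1.32-fold. It was 0.05 without citrate buffer replicate 1 (-0.22 to 0.32, adjusted p = 0.87). Of the 10 genes *Dusp1* had the narrowest interval, and its level varied by 10.02% in iron citrate and 9.40% in citrate buffer libraries (coefficient of variation).

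*Dusp4*, a nuclear phosphatase induced by growth factors and stress that acts on ERK, JNK and p38, had the largest difference and the widest interval of the 10. Its level was 61.2, 45.3, 61.7 and 78.5 CPM in iron citrate replicates 1 to 4, against 6.48, 28.6, 45.7 and 57.1 CPM in citrate buffer replicates 1 to 4. Of the iron libraries 3 lay above all buffer libraries, while replicate 2 lay just below buffer replicate 3 and further below buffer replicate 4. Means were 61.6 ± 13.5 CPM after iron citrate and 34.5 ± 22.0 CPM after citrate buffer (SD, n = 4 each), with a log2 fold change of 0.84 (SE 0.50, 95% interval -0.26 to 1.95, edgeR adjusted p = 0.37). The buffer libraries spanned 8.82-fold, and replicate 1 held 68 *Dusp4* counts where the other 3 held 343 to 513. Without that library the log2 fold change was 0.50, with a narrower interval of 0.04 to 0.96 (unadjusted p = 0.0342, edgeR adjusted p = 0.326). In the fit without it 13.2% of all targets had an unadjusted p under 0.05. Without both buffer replicates 1 and 2 the log2 fold change of *Dusp4* was 0.27 (-0.11 to 0.65, unadjusted p = 0.158, adjusted p = 0.62).

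*Dusp5*, a nuclear phosphatase specific for ERK, stood at 28.7, 23.6, 36.8 and 38.8 CPM in iron citrate replicates 1 to 4, against 16.5, 23.5, 21.6 and 31.3 CPM in citrate buffer replicates 1 to 4. Iron replicates 3 and 4 lay above all buffer libraries, while iron replicate 2 was level with buffer replicate 2. The log2 fold change was 0.47 (SE 0.23, 95% interval -0.05 to 0.98, edgeR adjusted p = 0.333). It was 0.34 (-0.07 to 0.75, adjusted p = 0.47) without citrate buffer replicate 1.

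*Dusp6* and *Dusp7* encode cytoplasmic phosphatases of ERK. *Dusp6*, whose mRNA is among the most used transcript readouts of ERK activity, stood at 138.1, 142.0, 178.3 and 202.6 CPM in iron citrate replicates 1 to 4, against 135.4, 212.3, 177.5 and 170.1 CPM in citrate buffer replicates 1 to 4. The highest and the lowest library were both buffer libraries. Means were 165 ± 30.8 CPM after iron citrate and 174 ± 31.5 CPM after citrate buffer (SD, n = 4 each), and the log2 fold change was -0.07 (95% interval -0.47 to 0.32, edgeR adjusted p = 0.846). Its close relative *Dusp7* stood at 124.3, 176.1, 146.0 and 215.5 CPM after iron citrate, against 221.0, 222.4, 153.4 and 150.0 CPM after citrate buffer. *Dusp7* was the 1 gene of the 10 above its own mean in citrate buffer replicate 1, where only buffer replicate 2 was higher. Its log2 fold change was -0.17 (95% interval -0.64 to 0.29, edgeR adjusted p = 0.669). Leaving out citrate buffer replicate 1 gave log2 fold changes of -0.18 for *Dusp6* and -0.08 for *Dusp7* (edgeR adjusted p = 0.629 and 0.856).

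*Dusp10* and *Dusp16* encode phosphatases that prefer JNK and p38 over ERK. *Dusp10* stood at 51.6, 56.0, 33.7 and 44.6 CPM in iron citrate replicates 1 to 4, against 38.1, 65.0, 59.8 and 36.8 CPM in citrate buffer replicates 1 to 4. Both groups held high and low libraries, and the log2 fold change was -0.10 (95% interval -0.62 to 0.41, edgeR adjusted p = 0.831). *Dusp16*, which acts chiefly on JNK, stood at 26.2, 27.0, 32.1 and 21.8 CPM after iron citrate, against 12.8, 15.9, 22.6 and 23.6 CPM after citrate buffer. Of its iron libraries 3 lay above all buffer libraries, and replicate 4 lay below buffer replicates 3 and 4. Means of *Dusp16* were 26.8 ± 4.25 CPM after iron citrate and 18.7 ± 5.25 CPM after citrate buffer (SD, n = 4 each). Its log2 fold change was 0.52 (SE 0.23, 95% interval 0.01 to 1.03) with an unadjusted p of 0.0478 and an edgeR adjusted p of 0.333. With citrate buffer replicate 1 left out the difference was 0.37 for *Dusp16* (-0.01 to 0.76, adjusted p = 0.402) and -0.22 for *Dusp10* (adjusted p = 0.648), and without both buffer replicates 1 and 2 it was 0.21 for *Dusp16* (adjusted p = 0.719), in a fit where 12.9% of all targets had an unadjusted p under 0.05.

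**Figure D1:**
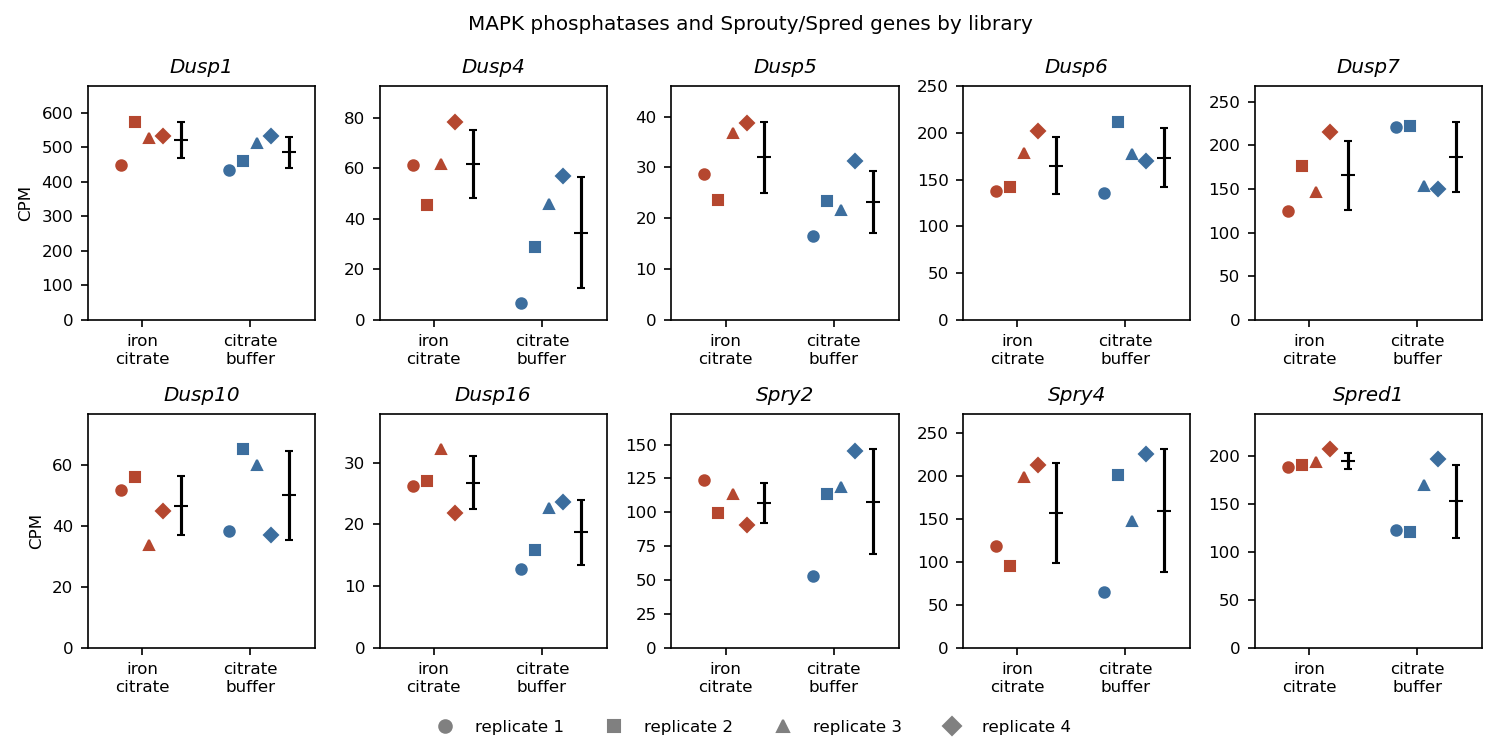
CPM of the 10 genes in each library, 1 panel per gene, with iron citrate at the left of each panel and citrate buffer at the right; point shapes give the replicate number and black bars the mean ± SD of 4 libraries, on linear axes that start at 0. The groups overlap in every panel, and for *Dusp4* citrate buffer replicate 1 sits at 6.48 CPM, far under its group.

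The Sprouty genes, inhibitors of the path from receptor tyrosine kinases to ERK, had nearly equal group means over all 8 libraries. *Spry2* stood at 124.2, 99.2, 113.5 and 90.9 CPM in iron citrate replicates 1 to 4, against 53.2, 113.3, 118.9 and 145.1 CPM in citrate buffer replicates 1 to 4. All 4 iron values lay inside the range of the buffer values, and the means were 107 ± 14.8 CPM after iron citrate and 108 ± 38.8 CPM after citrate buffer (SD, n = 4 each). The log2 fold change of *Spry2* was -0.01 (95% interval -0.60 to 0.58, edgeR adjusted p = 0.989). When citrate buffer replicate 1 was left out the buffer mean was 126 ± 17.0 CPM (SD, n = 3), and the log2 fold change was -0.23 (-0.53 to 0.06, adjusted p = 0.492). Without both buffer replicates 1 and 2 the log2 fold change of *Spry2* was -0.30 (-0.61 to 0.004, unadjusted p = 0.0529, edgeR adjusted p = 0.395).

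*Spry4* stood at 118.3, 95.2, 198.9 and 212.7 CPM in iron citrate replicates 1 to 4, against 64.2, 200.5, 147.2 and 225.4 CPM in citrate buffer replicates 1 to 4. The iron libraries fell apart into replicates 1 and 2 at the low end and replicates 3 and 4 at the high end, a span of 2.23-fold within 1 group. The log2 fold change was -0.03 with a wide interval of -0.88 to 0.82 (edgeR adjusted p = 0.976). It was -0.29 without citrate buffer replicate 1 (-0.82 to 0.24, adjusted p = 0.632), and -0.25 without buffer replicates 1 and 2 (-1.26 to 0.76, adjusted p = 0.9).

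*Spred1*, whose protein brings the Ras inactivator neurofibromin to the membrane, stood at 188.3, 190.8, 193.6 and 206.9 CPM in iron citrate replicates 1 to 4, against 122.3, 120.3, 170.0 and 197.3 CPM in citrate buffer replicates 1 to 4. The iron libraries lay close together, and only buffer replicate 4 reached their level. Means were 195 ± 8.29 CPM after iron citrate and 152 ± 37.7 CPM after citrate buffer (SD, n = 4 each). The log2 fold change was 0.35 (SE 0.17, 95% interval -0.03 to 0.74, edgeR adjusted p = 0.333). It was 0.26 (-0.06 to 0.58, adjusted p = 0.475) without citrate buffer replicate 1, and 0.09 (adjusted p = 0.891) without buffer replicates 1 and 2.

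**Figure D2:**
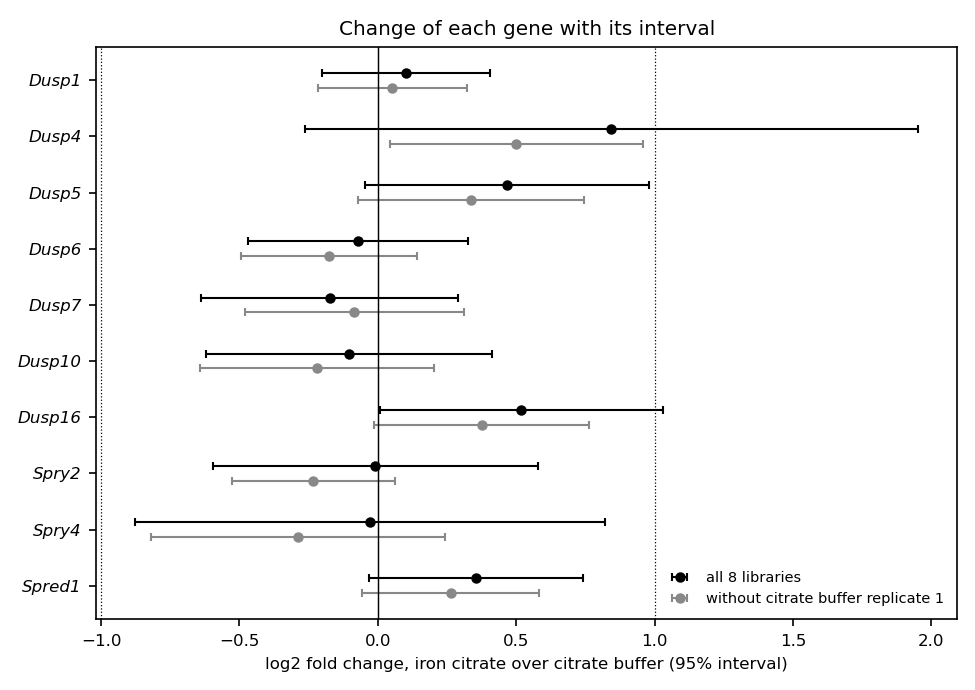
Log2 fold change of each gene, iron citrate over citrate buffer, from the edgeR fit, with its 95% interval as a horizontal bar; black is the fit of all 8 libraries, grey the fit without citrate buffer replicate 1, and dotted lines mark 2-fold. In the fit of all libraries 8 of 10 intervals lie inside the dotted lines, and all 10 do without citrate buffer replicate 1.

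Without citrate buffer replicate 1 the interval of all 10 genes lay within 2-fold, 0 of 10 were called, beside 1.76% of all targets, and the median log2 fold change was -0.02, against -0.04 over all targets. Without buffer replicates 1 and 2, 9 of the 10 intervals lay within 2-fold, the exception being *Spry4*, and 0 of 10 were called, beside 1.9% of all targets.

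Several of the genes were high or low in the same libraries. Citrate buffer replicate 1 was the lowest of all 8 libraries for 7 of the 10 genes, the exceptions being *Dusp7*, *Dusp10* and *Spred1*, while it was the lowest for 36.6% of all tested targets. In *Dusp4*, *Dusp5*, *Dusp6*, *Spry4* and *Spred1* the 2 highest iron citrate libraries were replicates 3 and 4. *Dusp1*, *Dusp7*, *Dusp10*, *Dusp16* and *Spry2* did not follow that order, with *Dusp16* and *Spry2* lowest in iron replicate 4 and *Dusp10* lowest in iron replicate 3. The share of all tested targets with that order was not counted. The median coefficient of variation of the 10 genes was 19.8% in iron citrate libraries and 27.3% in citrate buffer libraries, or 20.6% in buffer without replicate 1. Over all tested targets the medians were 16.4%, 30.5% and 18.6%. *Spred1* varied least in iron citrate libraries, by 4.25%, and *Spry4* most, by 37.3%.

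**Figure D3:**
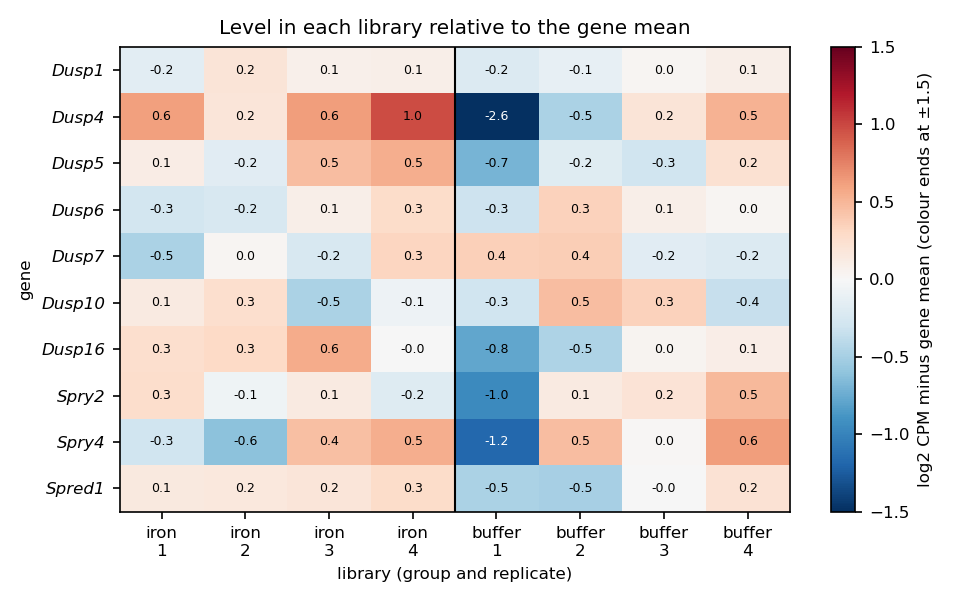
Log2 CPM of each gene in each library minus its mean over the 8 libraries, iron citrate libraries left of the black line and citrate buffer libraries right of it; red is above and blue below the gene's mean, and the colour scale ends at ±1.5. The column of citrate buffer replicate 1 is blue in all genes except *Dusp7*, and no row splits cleanly at the black line.

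The targets with the most similar pattern were sought for *Dusp1* and *Dusp4*, by the root mean square difference of log2 CPM centred on each gene's mean over the 8 libraries, among 11678 tested targets with a mean CPM of at least 5. *Dusp1* was taken for its CPM, the highest of the 10, which depends on its amplicon, and *Dusp4* for its log2 fold change. For *Dusp1* they were *Cr1l*, *Tdrd3* and *Dido1*, at differences of 0.06 to 0.07. *Dusp1* itself deviated from its own mean by 0.13 on that scale. For *Dusp4* they were *Plppr2*, *Rph3al* and *Keap1*, at 0.10, 0.24 and 0.24, where *Dusp4* itself deviated by 1.06. All 3 were lowest in citrate buffer replicate 1, as *Dusp4* was, which follows from how they were chosen. *Keap1*, the repressor of NRF2, was at 2.86 CPM there against 12.1 to 23.7 CPM in the other buffer libraries. None of these 6 targets was called (edgeR adjusted p = 0.333 to 0.893). Since they were chosen to resemble genes that were not called, this is no separate result.

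The phosphatase family was completed by *Dusp2*, *Dusp8* and *Dusp9*, of which 0 of 3 were called by edgeR or DESeq2 and 0 of 3 had an unadjusted p under 0.05. Over all tested targets edgeR called 0.555% and DESeq2 2.5%, and 14.6% had an unadjusted edgeR p under 0.05. *Dusp2*, an inducible nuclear phosphatase best known from immune cells, stood at 68.4 ± 16.1 CPM after iron citrate and 86.2 ± 16.5 CPM after citrate buffer (SD, n = 4 each). Its log2 fold change was -0.33 (95% interval -0.78 to 0.11, edgeR adjusted p = 0.373). *Dusp8* stood at 6.35 ± 2.44 CPM after iron citrate and 8.74 ± 4.08 CPM after citrate buffer (adjusted p = 0.552). *Dusp9* stood at 1.11 ± 0.27 CPM after iron citrate and 1.56 ± 1.03 CPM after citrate buffer (adjusted p = 0.592). Their median log2 fold change was -0.46. *Spred2* and *Spred3* were measured as well, at log2 fold changes of 0.29 (-0.25 to 0.82) and -0.88 (-1.95 to 0.18), and neither was called by edgeR (adjusted p = 0.516 and 0.343, unadjusted p = 0.256 and 0.0937) or DESeq2. Of 10 tested phosphatases outside the MAPK-directed family 0 were called by edgeR or DESeq2, and 1 had an unadjusted p under 0.05, beside the same shares of all targets. The 2 with the smallest p were *Dusp11* at a log2 fold change of 0.31 and *Dusp3* at 0.63 (adjusted p = 0.333 for both).

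Of the ERK output genes 0 of 19 tested were called by edgeR and 4 by DESeq2 (*Ier3*, *Klf10*, *Klf6* and *Maff*, all higher), and the median log2 fold change was 0.20. Over all tested targets edgeR called 0.555% and DESeq2 2.5%. Before adjustment 6 were higher and 1 was lower at a p under 0.05 (edgeR), beside 14.6% of all targets in either direction. *Ier3*, an early stress-response gene, stood at 26.2 ± 5.17 CPM after iron citrate and 13.5 ± 2.52 CPM after citrate buffer (SD, n = 4 each; log2 fold change 0.95, edgeR adjusted p = 0.137). *Maff*, a small MAF protein that also partners NRF2, stood at 13.7 ± 8.60 CPM after iron citrate and 2.98 ± 1.22 CPM after citrate buffer (log2 fold change 2.21, adjusted p = 0.14). In the fit without citrate buffer replicate 1 *Ier3* and *Maff* were called higher, together with *Klf10* (adjusted p = 0.0336, 0.0225 and 0.0152), in a fit that called 1.76% of all targets. *Egr1*, the transcription factor that ERK induces through serum response factor, was named after its values were seen. It stood at 178.2, 201.0, 102.5 and 375.8 CPM in iron citrate replicates 1 to 4, against 402.0, 660.2, 339.2 and 385.0 CPM in citrate buffer replicates 1 to 4. Of the iron libraries 3 lay below all buffer libraries, with a log2 fold change of -1.06 (SE 0.36, edgeR adjusted p = 0.333), and *Egr1* was called in 0 of 17 alternative settings (adjusted p = 0.108 to 0.701).

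Among the kinases themselves, 0 of 24 tested genes of the ERK cascade were called by edgeR, 1 by DESeq2 (*Mapk6*), and 2 were higher at an unadjusted p under 0.05, beside 0.555%, 2.5% and 14.6% of all targets (median log2 fold change 0.23). *Mapk6* had the smallest p there, at 82.2 ± 5.59 CPM after iron citrate and 58.5 ± 4.12 CPM after citrate buffer (SD, n = 4 each; edgeR adjusted p = 0.147), followed by *Nras* (log2 fold change 0.30, adjusted p = 0.333). Again without citrate buffer replicate 1, *Mapk6* and *Sos2* were called higher (adjusted p = 0.032 and 0.0469), in a fit that called 1.76% of all targets. In the JNK and p38 cascade 1 of 32 tested genes fell, 0 rose and 31 did not pass (edgeR), beside 0.555% of all targets called, with a median of 0.11. Before adjustment 4 were higher and 1 was lower at an edgeR p under 0.05, beside 14.6% of all targets. The gene that fell was *Map2k6*, a kinase that activates p38, at 18.2, 16.9, 15.8 and 22.9 CPM in iron citrate replicates 1 to 4, against 38.8, 53.7, 38.8 and 36.4 CPM in citrate buffer replicates 1 to 4 (log2 fold change -1.18, SE 0.18, edgeR adjusted p = 0.0168). The groups did not overlap, and the call was lost without any 1 of iron citrate replicates 1 to 3 (adjusted p = 0.1, 0.103 and 0.0888) or of citrate buffer replicates 2 and 3 (0.0699 and 0.0524), and under the replicate block (0.0928). In those fits the log2 fold change of *Map2k6* lay between -1.22 and -1.04. Both DESeq2 and the fit without citrate buffer replicate 1 called 4 genes of that list: *Map2k3*, *Gadd45g* and *Map3k20* higher and *Map2k6* lower (without that library, edgeR adjusted p = 0.00213, 0.00547, 0.0335 and 0.00119). Those fits called 2.5% and 1.76% of all targets.

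The remaining lists held no gene called by edgeR. Of 20 tested MAPK inhibitors outside these families, whose median log2 fold change was 0.11, *Il17rd* stood at 6.04 ± 1.30 CPM after iron citrate and 3.21 ± 1.19 CPM after citrate buffer, and *Ppm1a* at 139 ± 20.6 CPM after iron citrate and 101 ± 23.3 CPM after citrate buffer (SD, n = 4 each; edgeR adjusted p = 0.333 for both). Of 21 genes of tissue dissociation and immediate-early stress, with a median of 0.26, *Klf6* had the second smallest p after *Ier3*, at 219 ± 29.9 CPM after iron citrate and 137 ± 29.7 CPM after citrate buffer (edgeR adjusted p = 0.209). Of 16 growth factor receptors, with a median of 0.19, *Erbb3* stood at 1.25 ± 0.13 CPM after iron citrate and 0.34 ± 0.21 CPM after citrate buffer, and *Insr* stood at 96.6 ± 14.6 CPM after iron citrate and 55.2 ± 24.9 CPM after citrate buffer (adjusted p = 0.164 and 0.333). *Erbb3* was near the floor, at 0.167 to 0.623 CPM in buffer libraries, so its values rest on few counts. Before adjustment 2 of the inhibitors (both higher), 3 of the dissociation genes (2 higher, 1 lower) and 4 of the receptors (all higher) had an edgeR p under 0.05, beside 14.6% of all targets. DESeq2 called 0, 2 (*Ier3* and *Klf6*) and 0 of them, beside 2.5% of all targets. *Ier3* and *Klf6* are also in the ERK output list, so their calls are counted under both lists. These values are mRNA levels at 1 time, and neither the activity of the kinases nor that of the phosphatases was measured.

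**Figure D4:**
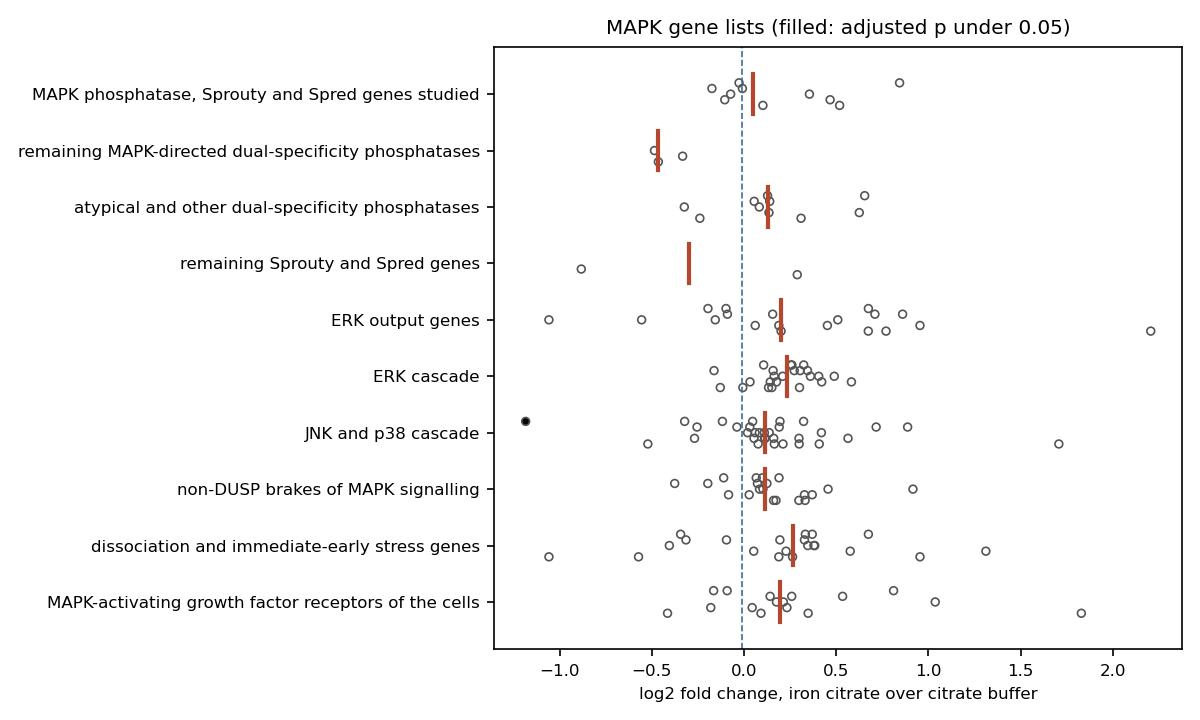
Log2 fold change, iron citrate over citrate buffer, of every tested gene in the 10 genes described here and in the 9 MAPK lists, 1 row per list; a filled point was called in the edgeR test (adjusted p under 0.05), the red bar is the median of the list and the dashed line the median of all tested targets. The only filled point is *Map2k6*, and the median of the 10 genes, 0.05, lies next to the dashed line at -0.01.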

How the data were processed

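The authors deposited 1 file of whole-number read counts per library, for 23930 RefSeq targets of an Ion AmpliSeq mouse transcriptome panel, which reads each gene through a short amplicon. The submitters' processing notes list HTSeq 0.6.0 and DESeq2 1.18.1. Aligner and genome build: not given in the sources used here. HTSeq's summary lines, 2.15% to 4.60% of the reads of a file, were left out. Symbols came from RefSeq (18128 targets by versioned accession, 4324 without the version) and GENCODE (110), and 1368 had none.

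Iron citrate was compared with citrate buffer in edgeR 4.0.16 (R 4.3.3) with filterByExpr, TMM factors, a robust quasi-likelihood F-test and Benjamini-Hochberg adjustment over 14601 targets. Standard errors and 95% intervals were derived from the F statistic. DESeq2 1.42.0, limma-voom (limma 3.58.1), other scaling factors and filters, the replicate number as a block and fits without single libraries were alternatives. The limma-voom fit used quality weights, by which discordant libraries count less. List counts without citrate buffer replicate 1 and with DESeq2 were added after seeing the data. The genes, lists and alternatives were chosen with earlier results of these data known. Besides the 10 genes, the text names the called genes of each list, or else the 2 with the smallest p, and, after their values were seen, *Egr1* and the genes called in the added alternatives. Pairs of libraries within a group differed by more than sampling noise (chi-square per degree of freedom of at least 8.79). The labels say nothing more on how independent the mice were, so a p-value speaks only of the spread among these libraries. The edgeR step was tested on data simulated for this comparison over 14468 genes: of 100 genes simulated with a 2-fold change 34 were called, of 98 with a 4-fold change 78, and of 14270 without change 7. The simulation drew all libraries of a group from 1 profile and held no library that stood apart as citrate buffer replicate 1 did. Its call rates may therefore not hold for the real libraries.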

Additional observations from a re-analysis of the deposited data

How the results depend on the processing

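Under 17 alternatives, 0 of the 10 genes were called in any, and the lowest adjusted p among these 170 values was 0.158, for *Spred1* without citrate buffer replicate 4. *Dusp4*, *Dusp5*, *Dusp16* and *Spred1* were higher after iron citrate in all 17, with lowest log2 fold changes of 0.27, 0.29, 0.21 and 0.09. The alternatives draw on the same 8 libraries, and the share of all targets that kept 1 sign was not counted. Among the others, 18 values changed sign, with a lowest adjusted p of 0.71. With upper-quartile factors *Dusp1* was at -0.0034, and without citrate buffer replicates 1 and 2 *Dusp1* was at -0.0069 and *Dusp7* at 0.12. Over the fits without single libraries the log2 fold change ran from -0.22 to 0.048 for *Dusp10*, -0.18 to 0.037 for *Dusp6*, -0.23 to 0.17 for *Spry2* and -0.29 to 0.19 for *Spry4*. Upper-quartile factors and library totals moved the median log2 fold change of all targets to -0.12 and -0.11.

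All targets called numbered 81, but 365 with DESeq2, 289 with limma-voom, 281 without citrate buffer replicates 1 and 2, and 46 to 259 without single libraries, the highest without citrate buffer replicate 1. With the replicate block 43 were called, *Spry2* was at 0.0597, *Spry4* at 0.0447, and 0 of the 10 genes were called. Deviations of same-numbered libraries from their group means correlated at -0.0003 to 0.61 in 3 pairs and at -0.32 in the fourth. Not every library correlated best with its own number. Deviations from a mean of 4 libraries depend on each other, so these values cannot tell whether the samples were paired. The numbers used are those in the titles. The deposited files number the buffer libraries 1 higher, which would pair libraries that correlated at 0.41, -0.27 and -0.35. Called genes of the lists, without citrate buffer replicate 1 and with DESeq2, numbered 3 and 4 for ERK output, 2 and 1 for the ERK cascade, 4 and 4 for JNK and p38, and 1 and 2 for dissociation genes. The called dissociation genes are also counted under ERK output. The cause of these changes was not tested. With 4 libraries a group, intervals as wide as that of *Dusp4* leave changes of over 2-fold within them.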
